A study of Mus musculus with 4 samples.

Results

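The regions described here are strong peaks of a Foxo1 antibody in mouse regulatory T cells that met no peak of a second capture of the same protein. They were selected on 2 measured values: on chromosomes 1 to 19, an antibody score of at least 419 and an overlap of 0 bases with every peak of the streptavidin list. A score of 419 or above, called strong here, was reached by 9.95% of the autosomal antibody peaks. A total of 586 regions met this rule, of 1620 antibody peaks on these chromosomes with such a score and of 16473 antibody peaks in all. The score and the missing overlap chose the regions, so both are given as a description and support nothing. The regions are called unmatched strong peaks below, and the other 1034 strong peaks, which overlapped a streptavidin peak, are called matched strong peaks.

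The study mapped Foxo1 by chromatin immunoprecipitation and sequencing (ChIP-seq), in which DNA bound to a protein is captured, sequenced and searched for places where reads pile up (peaks). The antibody library came from nTreg cells of wild-type B6 mice. The streptavidin library came from nTreg cells of Foxo1tagBirA mice, whose endogenous Foxo1 carries biotin, and each had 1 input library. The routes therefore differed in the mice as well as in the capture, and what each contributes cannot be told apart. Age, sex and the number of mice in a library are not stated in the labels. No drug treatment is named for any group.

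Foxo1 is a forkhead transcription factor. Growth factor and antigen receptor signals that activate PI3K and Akt cause it to be phosphorylated and kept in the cytoplasm, and in resting cells it enters the nucleus and binds DNA through its forkhead domain. In T cells it is known for its part in homing, survival and quiescence, and in regulatory T cells, which restrain other T cells, it is needed for their function. Streptavidin binds biotin very tightly, so that tagged Foxo1 can be captured without an antibody.

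The lists hold positions and scores in the mouse build mm9, with 1 library a group, no replicates and no read counts. The depth of the libraries is therefore unknown, and the exact 95% binomial intervals in parentheses below cover counting error over peaks only. Neighbouring peaks are not independent. Whether a peak just under the threshold was lost from the streptavidin list cannot be seen in it. No gene or DNA sequence is assigned to a peak, because the reference tables used here are in another build, GRCm38.

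Unmatched strong peaks were 36.2% (33.8 to 38.6) of the strong autosomal peaks, against 78.2% of all 16282 autosomal antibody peaks without an overlap. Since the rule used this contrast, nothing is read from it. The streptavidin list held 57748 peaks and the antibody list 16473, and the share without an overlap also depends on the length of the streptavidin list. The unmatched strong peaks made up 4.60% of the 12728 unmatched autosomal antibody peaks of any score and covered 209.8 kb. Their scores ran from 419 to 3194, with a median of 562 and quartiles of 474 and 748. The matched strong peaks had a median score of 742 and quartiles of 541 and 1133. Of the unmatched strong peaks 195 scored below 500, 391 scored 500 or more, 75 scored 1000 or more and 14 scored 2000 or more.

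The share of strong peaks that were unmatched was lower in each higher band of score. From 419 to below 500 it was 53.4% (48.2 to 58.6), and from 500 to below 750 it was 40.9% (36.9 to 44.9). It was 26.6% (21.4 to 32.5) from 750 to below 1000 and 23.9% (18.2 to 30.3) from 1000 to below 1500. From 1500 to below 2000 it was 15.0% (7.998 to 24.7), and at 2000 or more 13.1% (7.34 to 21.0). Neighbouring bands above 750 had overlapping intervals. At a score of 3100 and above, 6 of the 40 autosomal peaks were unmatched.

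**Figure D1:**
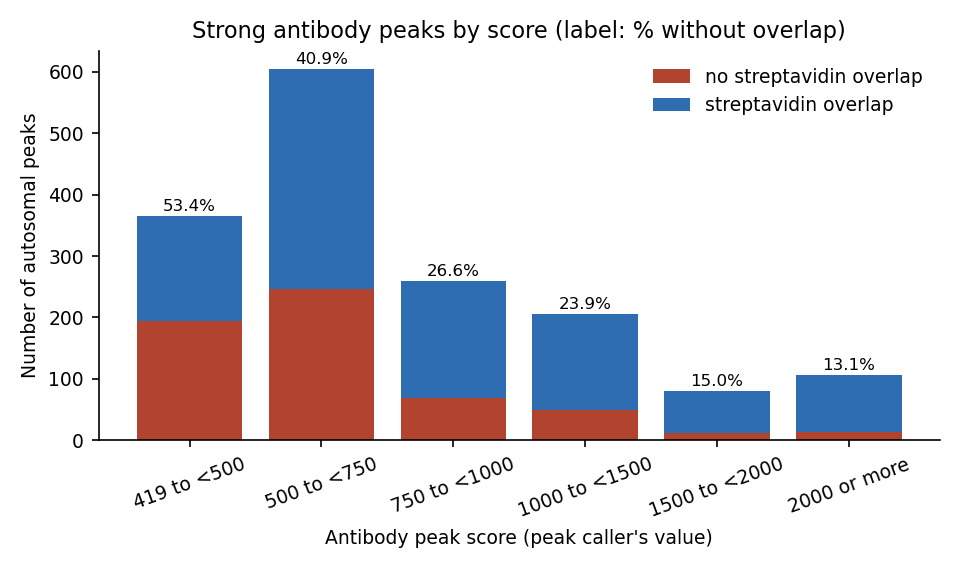
Number of autosomal antibody peaks scoring at least 419 in 6 bands of score (x axis, the peak caller's own value), split by colour into peaks without and with a streptavidin overlap; the label over each bar is the percentage without overlap. The percentage goes from 53.4% in the lowest band to 13.1% in the highest.

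The highest score belonged to chr8:127421512-127421808, a region 297 bases wide with a score of 3194. The nearest streptavidin centre lay 2777 bases away and belonged to a peak with a score of 62.6, which is under the streptavidin median of 74.7. A score of exactly 3100 was given to 5 further regions, whose order is therefore not resolved. No header defines the score, so whether this repeated value truly ranks below 3194 is not known. Of these, chr10:80655099-80655688 was 590 bases wide, and its nearest streptavidin centre was 37256 bases away. The region chr2:24774863-24775354 was 492 bases wide, with a streptavidin centre 10181.5 bases away and a weaker antibody peak (score 139) centred 418 bases from it. The region chr5:116081680-116082102 was 423 bases wide, with a streptavidin centre at 12774 bases.

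The remaining regions at 3100 were chr8:72758291-72758631, 341 bases wide and 22349 bases from a streptavidin centre, and chr18:80403392-80403658, 267 bases wide and 6244.5 bases from one. The next scores were 3046 at chr9:114597686-114597938 and 2922 at chr1:141318375-141319070, which lay 20580.5 and 45013 bases from a streptavidin centre. A region at chr8:72877128-72877552 scored 2668 and had a streptavidin centre 1957 bases away. It lay in the same 1 Mb window of chromosome 8 as the region at 72758291. A score of 2467 was given to chr13:25112112-25112321, 65085.5 bases from a streptavidin centre, the farthest of the 20 highest-scoring regions.

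The 20 highest-scoring regions had scores of at least 1755 and lay on 13 chromosomes. They were 195 to 792 bases wide, with a median of 400.5 bases. Their nearest streptavidin centres were a median of 20176 bases away, and only 1 of the 20 had one within 1 kb. That region, chr2:119373239-119373557, scored 1790 and lay 42 bases from the edge of a streptavidin peak with a score of 59.8, near the bottom of that list. The other 19 lay 1908.5 bases or more from any streptavidin centre.

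At the threshold, 4 regions shared the score of 419.04. They lay at chr1:163696869-163697197, chr11:54679711-54679952, chr12:86787939-86788262 and chr15:57524670-57524867. The next score inside was 419.9, at chr1:173701119-173701353. The first unmatched autosomal peaks outside scored 418.66 (chr17:46782956-46783318), 417.97 (chr3:51365387-51365827), 415.36 (chr10:127472348-127472753), 414.61 (chr3:137581280-137581495) and 414.14 (chr7:109414721-109415307). The lowest score inside and the highest outside thus differed by less than 1.

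Unmatched strong peaks were narrower than matched strong peaks. Their median width was 336 bases (interval of the median 326 to 351, quartiles 251.5 and 449), against 391.5 bases (380 to 404, quartiles 302 and 507.75) in the matched ones. Lower-scoring unmatched peaks had a median of 221 bases (219 to 222), and all autosomal antibody peaks one of 233 bases (231 to 234). Width comes from the same peak calls as the rule, and a wider peak has more room to meet another, so the widths are a description without a test.

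The median width was lower in the unmatched than in the matched peaks in each of the 6 bands of score, by unequal amounts. From 419 to below 500 the medians were 308 (284 to 329) and 357.5 bases (333 to 380), and from 500 to below 750 they were 340 (320 to 361) and 381 bases (362 to 402). These were the lowest bands and held 442 of the 586 regions. From 750 to below 1000 the medians were 398 (341 to 444) and 403 bases (374 to 429), which differ by less than their intervals. At 1000 to below 1500 they were 373 and 412 bases, and at 2000 or more 424 and 459 bases, also with overlapping intervals. From 1500 to below 2000, with 12 unmatched peaks, they were 335 (211 to 378) and 432.5 bases (383 to 468). Across the 586 unmatched strong peaks of this 1 library, score and width had a Spearman's rho of 0.22, and across the 1034 matched ones 0.17.

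**Figure D2:**
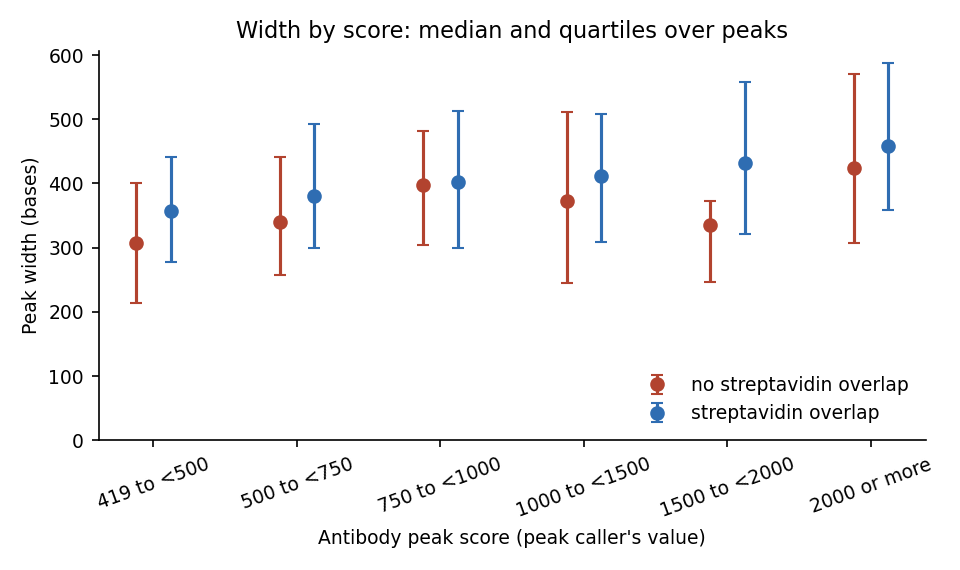
Median peak width in bases (y axis, points) with quartiles over peaks (bars) in 6 bands of antibody score, for strong peaks without and with a streptavidin overlap. The unmatched medians run from 308 to 424 bases and lie under the matched medians in every band, with only a few bases between them from 750 to below 1000.

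Read the other way, narrow strong peaks were unmatched more often than wide ones. Among strong peaks under 200 bases, 74 of 129, or 57.4% (48.4 to 66.0), had no streptavidin overlap. The share was 35.9% (31.4 to 40.6) for 300 to below 400 bases and 18.9% (10.7 to 29.7) for 700 bases or more, where 14 of 74 were unmatched. The narrowest regions were chr5:107092074-107092170 with 97 bases, chr16:47990759-47990857 with 99 and chr14:119120810-119120911 with 102. The widest were chr2:26300624-26301534 with 911 bases and a score of 465, chr8:73363137-73364039 with 903 bases and 969, and chr8:48799086-48799947 with 862 bases and 1414. They were followed by chr12:79962447-79963282 with 836 bases and a score of 811 and by chr17:56723707-56724498 with 792 bases and 2220. The narrowest regions thus all scored under 500, whereas the widest spanned low and high scores.

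The rule left out peaks that overlapped a streptavidin peak, and few unmatched peaks, strong or lower-scoring, lay beside one. The edges of 17 of the 586 were within 100 bases of one, or 2.90% (1.70 to 4.60). Of the lower-scoring unmatched peaks 2.10% (1.85 to 2.37) were. Within 200 bases there were 35, or 5.97% (4.20 to 8.21), against 3.97% (3.63 to 4.33). Within 1 kb there were 84, or 14.3% (11.6 to 17.4), against 12.2% (11.6 to 12.8). The intervals overlap at each distance. The region chr11:87860917-87861214 (score 556) touched the edge of a streptavidin peak with a score of 54.3 without sharing a base. A streptavidin centre lay within 1 kb of the centre of 72 regions, or 12.3% (9.74 to 15.2), against 10.4% of all unmatched autosomal antibody peaks. Among the lower-scoring unmatched peaks alone the share was 10.3% (9.81 to 10.9). The interval of the strong peaks includes that value.

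At larger distances unmatched strong peaks and lower-scoring unmatched peaks had like shares. Within 5 kb of 180 strong regions, or 30.7% (27.0 to 34.6), there was a streptavidin centre, against 31.6% (30.8 to 32.4). Within 10 kb the shares were 46.9% (42.8 to 51.1) and 49.4% (48.5 to 50.3), and within 50 kb 94.9% (92.8 to 96.5) and 94.8% (94.4 to 95.2). The nearest streptavidin centre was a median of 11228 bases from an unmatched strong peak (interval of the median 9751 to 12542) and 10173 bases from a lower-scoring one (9881 to 10430.5). The intervals of the medians overlap. Among the 586, score and distance had a Spearman's rho of 0.046.

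**Figure D3:**
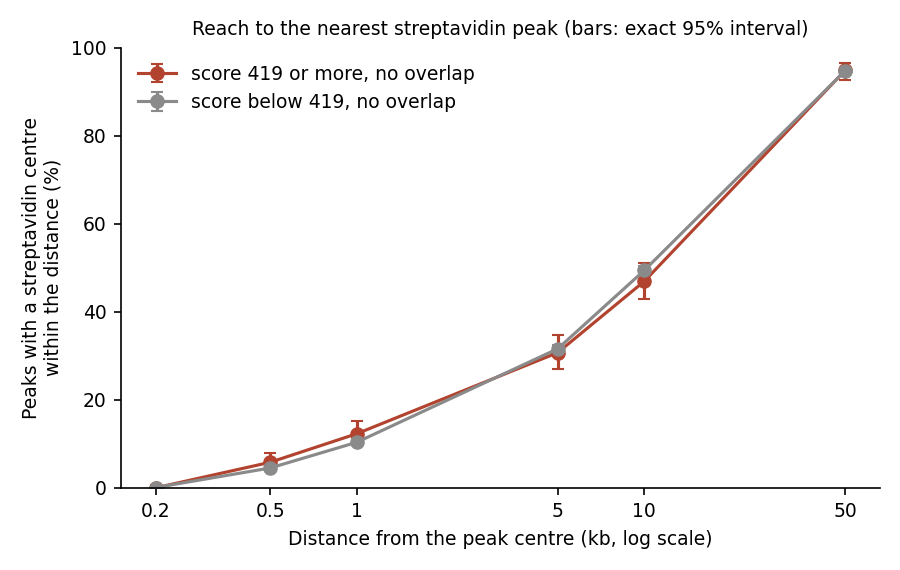
Percentage of unmatched autosomal antibody peaks with a streptavidin peak centre within a given distance (x axis, kb, log scale), for scores of 419 or more and below 419, with exact 95% intervals. The curves lie within a few percentage points of each other, at 12.3% and 10.3% within 1 kb and at 46.9% and 49.4% within 10 kb.

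The streptavidin peaks nearest to these regions scored near the middle of their list. Their median score was 72.9 (70.9 to 75.3), against 74.7 over the whole streptavidin list. For the streptavidin peaks nearest to matched strong peaks it was 149 (143 to 160). Those were centred a median of 54.5 bases away, and the rule left out regions with an overlapping streptavidin peak. Nothing is therefore read from the gap to 149. Where the nearest centre was within 1 kb, its median score was 80.3 (70.0 to 93.0), and 24 of these 72 streptavidin peaks scored 100 or more. That is 33.3% (22.7 to 45.4), against 18.3% of the whole streptavidin list and 30.7% (28.1 to 33.3) beside lower-scoring unmatched peaks. Only 2 of the 72 scored 200 or more.

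The share with a streptavidin centre within 1 kb was 15.4% (10.6 to 21.2) for scores below 500 and 12.1% (8.35 to 16.9) from 500 to below 750. It was 10.1% (4.18 to 19.8) from 750 to below 1000, and 2 of 49 from 1000 to below 1500. Then 3 of 12 regions had one from 1500 to below 2000, and 0 of 14 at 2000 or more, where the exact interval reaches 23.2% and 3 counts of the total would be 21.4%. The intervals of these bands overlap.

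The closest centres were 213.5 bases apart at chr14:119381873-119382041 (score 431), 246 bases at chr2:90585526-90585813 (421) and 264 bases at the touching region of chromosome 11. They were followed by 299.5 bases at chr13:115880185-115880547, which scored 852. The streptavidin peaks beside these 4 regions scored 53.7 to 67.9. At the other end, chr12:41172215-41172724 (score 539) was 177333.5 bases from any streptavidin centre and chr16:47990759-47990857 (421) was 110043 bases from one. Next were chr11:54336213-54336605 (791) at 105605 bases, chr11:86358204-86358460 (601) at 103771 bases and chr10:57252006-57252508 (1105) at 96488 bases. The regions on chromosomes 11 and 12 each had another antibody peak centred within 1 kb.

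Beyond 5 kb the surroundings of unmatched strong peaks were as rich in streptavidin peaks as those of matched ones. From 10 to 50 kb around the centre there were 33.6 streptavidin centres per Mb around unmatched strong peaks, 32.3 around matched strong peaks and 32.1 around lower-scoring unmatched peaks. From 50 to 500 kb the values were 31.5, 30.7 and 30.2, all above the autosomal average of 23.7 streptavidin peaks per Mb. Closer than 500 bases, where the rule removed overlaps, there were 56.3 per Mb around unmatched strong peaks and 1106 around matched ones. From 500 bases to 1 kb the values were 73.4 and 119, from 1 to 2 kb 42.7 and 51.3, and from 2 to 5 kb 25.9 and 32.1. Around lower-scoring unmatched peaks these bands held 65.5, 39.9 and 33.2, of which only the last was above the value of unmatched strong peaks. The density was higher around matched than around unmatched strong peaks in each band out to 5 kb and was alike beyond. From 2 to 5 kb this rests on 91 centres around unmatched and 199 around matched strong peaks, without an interval. Lower-scoring unmatched peaks had the highest value there, so nothing is read from that band.

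**Figure D4:**
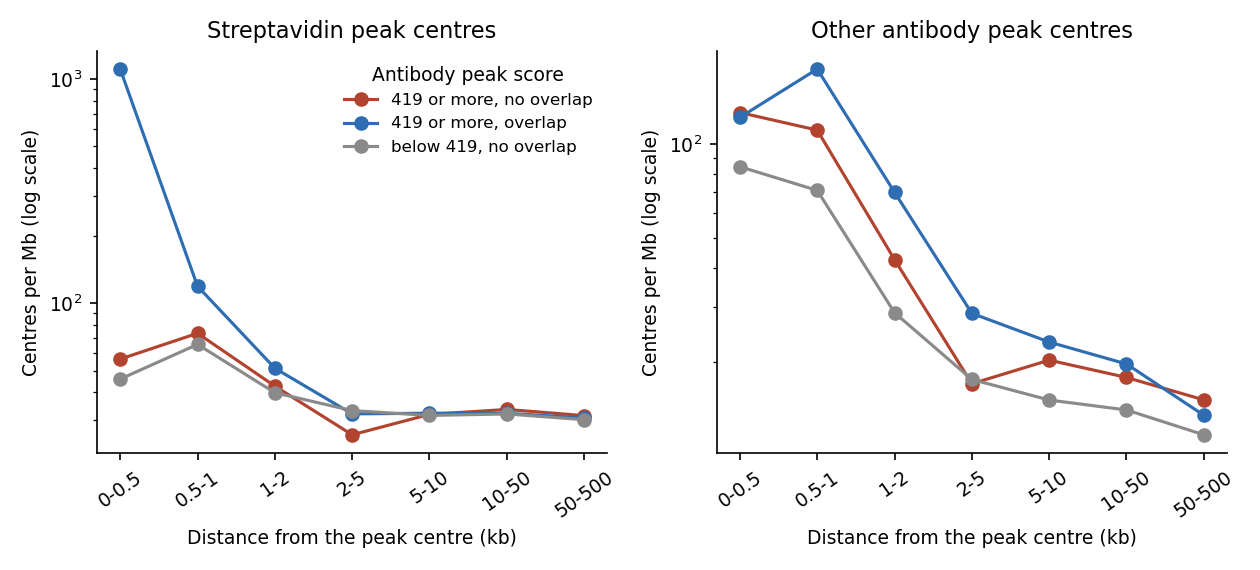
Mean density of streptavidin peak centres (left) and of other antibody peak centres (right) per Mb (log scale) at increasing distance in kb from the centre of 3 kinds of antibody peak. Beyond 5 kb the streptavidin densities of the 3 kinds lie between 30.2 and 33.6 per Mb. Within 1 kb of unmatched strong peaks antibody centres are denser (126 and 111 per Mb) than around lower-scoring unmatched peaks (84.7 and 71.1). They are also denser from 50 to 500 kb (15.1 against 11.7).

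Other antibody peaks were more frequent close to unmatched strong peaks than close to lower-scoring unmatched ones. Another antibody centre lay within 1 kb of 123 of the 586, or 21.0% (17.8 to 24.5), against 16.5% of all autosomal antibody peaks and 13.4% (12.8 to 14.0) of the lower-scoring unmatched peaks, an interval apart from that of the strong ones. For matched strong peaks the share was 26.3% (23.6 to 29.1) and for lower-scoring matched peaks 26.2% (24.4 to 27.9). Both shares lie above the interval of the unmatched strong ones, and the intervals overlap only at their ends, which does not show the shares to be alike. Within 5 kb the shares were 32.3% (28.5 to 36.2) for unmatched and 41.2% (38.2 to 44.3) for matched strong peaks, whose intervals do not overlap. The excess over lower-scoring unmatched peaks was not only local. From 10 to 50 kb there were 17.9 antibody centres per Mb against 14.1, and from 50 to 500 kb 15.1 against 11.7. From 2 to 5 kb, by contrast, the values were 17.1 and 17.6. Around matched strong peaks there were 13.5 from 50 to 500 kb.

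The neighbour within 1 kb scored lower than the region itself in 117 of the 123 cases. The regions were chosen for a high score, so nothing is read from that. Its median score was 161, against 167 for all autosomal antibody peaks. It reached 419 in 9 of the 123 cases, and 9.95% of all autosomal antibody peaks reached that score. It overlapped a streptavidin peak in 31 cases, or 25.2% (17.8 to 33.8), against 121 of 272, or 44.5% (38.5 to 50.6), for the neighbours of matched strong peaks. Of all autosomal antibody peaks 78.2% overlapped none. A streptavidin peak that overlaps a matched strong peak can also reach its neighbour, and the rule left out such regions. Nothing is therefore read from the gap to 44.5%. In 3 cases the neighbour was another unmatched strong peak and in 6 a matched strong peak. A total of 430 regions, or 73.4% (69.6 to 76.9), had neither a streptavidin nor another antibody centre within 1 kb, and 39 had both. The share with neither was not computed for other peaks. Taken singly, 87.7% of the 586 and 89.7% of the lower-scoring unmatched peaks had no streptavidin centre within 1 kb. No other antibody centre lay there for 79.0% and 86.6%. The 73.4% is therefore not read as a trait of these regions.

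The third list, named for both methods, met 9 of the 586 regions, or 1.54% (0.705 to 2.90), against 22.4% of all autosomal antibody peaks and 0.692% (0.552 to 0.856) of the lower-scoring unmatched peaks. It also met every matched antibody peak, strong or lower-scoring, so the gap to 22.4% follows from the rule, which left out all matched peaks, and nothing is read from it. The 9 regions scored 421.7 to 669.9, so they were among the lower scores, and all lay 8 to 422 bases from the edge of a streptavidin peak. In 6 of them the third list covered the whole region. The highest-scoring was chr3:54538839-54539069, with a score of 670 and its edge 8 bases from a streptavidin peak of score 224. It was followed by chr8:128998917-128999095 with 650 and chr15:98398392-98398522 with 518. In 8 of the 9 the nearest other antibody peak was itself matched. Because the list met every matched antibody peak, a region it met may lie beside one by construction. Nothing is read from this count or from the nearness to streptavidin edges. None of the 20 highest-scoring regions was met, where 3 counts of the total would be 15.0%.

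Chromosome 11 held the most unmatched strong peaks, 54 or 9.22% (7.00 to 11.9), followed by chromosomes 2 and 10 with 43 each, chromosome 5 with 40 and chromosome 4 with 39. Chromosomes 12 and 18 held the fewest, 18 or 3.07% each. Chromosome 11 also held 7.55% of all autosomal antibody peaks and 8.64% of the strong ones, both inside its interval. Of all autosomal antibody peaks chromosome 2 held 7.87% and chromosome 10 5.92%, against 7.34% of the unmatched strong peaks on each. Chromosomes 12 and 18 held 4.54% and 2.85% of all autosomal antibody peaks. The ranking by number is therefore a description only. Per Mb between the outermost peaks of the lists, the number was highest on chromosome 11, at 0.455, and on chromosome 19, at 0.396, and lowest on chromosome 3, at 0.141, a 3.24-fold range. Matched strong peaks had a 2.92-fold range, with their highest value, 0.725 per Mb, on chromosome 11 as well.

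No chromosome's share of unmatched strong peaks was set apart from the overall share at these numbers of peaks. The share was 47.3% (33.7 to 61.2) on chromosome 14, where 26 of 55 were unmatched, and 44.0% (29.99 to 58.7) on chromosome 16, with 22 of 50. At the low end it was 29.0% (18.2 to 41.9) on chromosome 12, with 18 of 62, and 31.5% (23.5 to 40.3) on chromosome 5, with 40 of 127. The intervals of all 19 autosomes include the overall 36.2%.

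**Figure D5:**
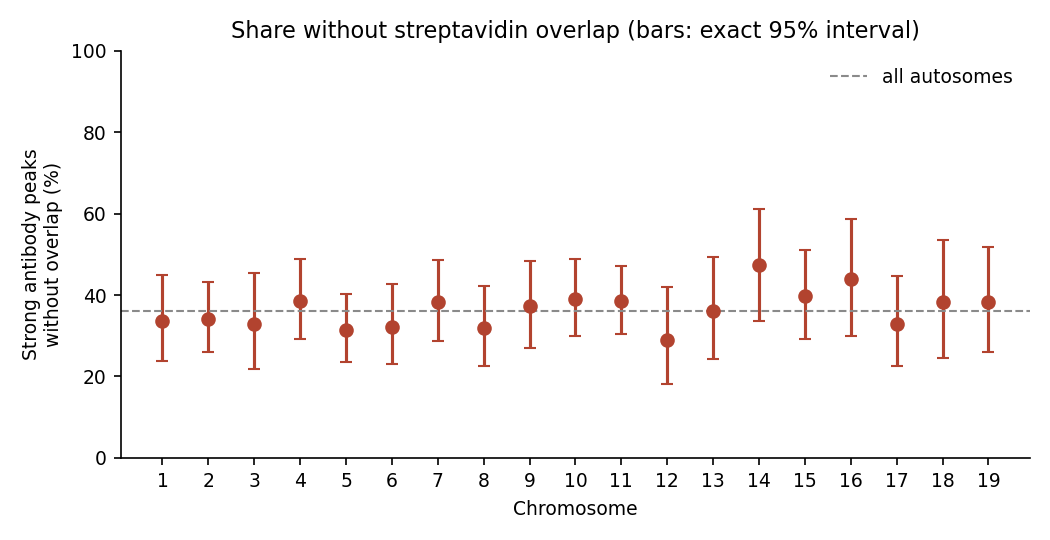
Percentage of strong antibody peaks without a streptavidin overlap on each autosome (points) with exact 95% intervals (bars); the dashed line is the value over all autosomes, 36.2%. Values run from 29.0% on chromosome 12 to 47.3% on chromosome 14, and every interval includes the line.

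The 586 regions fell into 432 fixed windows of 1 Mb, of which 327 held 1 region, 75 held 2 and 21 held 3. Windows with at least 1 of them held a median of 12.5 antibody and 31 streptavidin peaks, against 10 and 30 in the 435 windows with matched but no unmatched strong peaks, and 5 and 24 in all autosomal windows that held a peak. Of the 586 regions, 327 were thus single in their window. A window picked for holding a strong peak is more likely to be rich in peaks, so nothing is read from the gap to all windows. The 432 windows could also hold matched strong peaks, whereas the 435 could hold no unmatched one, so these medians are a description.

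The window with the most was chr10:80000001-81000000, where 9 of 14 strong antibody peaks were unmatched, among 58 antibody and 40 streptavidin peaks. Its regions scored 436 to 3100. The highest was the region at 80655099 described above. A region 714 bases wide at chr10:80138937-80139650 scored 516, and the nearest antibody peak, centred 1747.5 bases away, scored 3100 and was matched by a streptavidin peak of score 759. The other 8 regions of the window had their nearest streptavidin centres 14248.5 bases or more away.

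The neighbouring window, chr10:79000001-80000000, had 5 unmatched of 8 strong peaks. The windows chr8:72000001-73000000 and chr19:5000001-6000000 had 6 each, of 7 and 8 strong peaks. The window on chromosome 8 held 2 of the 20 highest-scoring regions. In chr2:120000001-121000000 all 4 strong peaks were unmatched, among 12 antibody and 20 streptavidin peaks.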

How the data were processed

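Foxo1 ChIP-seq of mouse nTreg cells comprised 4 libraries, of which 3 deposited lists were used. The build mm9 and the tools Bowtie 0.12.7 (an aligner), MACS 1.4 (a peak caller) and CASAVA 1.4 are named per the submitters' processing notes, without settings; the control and any pooling are not given in the sources used here. The antibody and streptavidin lists, named with a false discovery rate of 0.01, hold a position and 1 score per peak as deposited by the authors; no header defines the score, which was used only to choose, rank and describe peaks within a list. The third list, attached to the antibody input library, holds positions only.

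Overlaps (at least 1 base), distances between centres and gaps between edges were computed with Python 3.11.15, NumPy 2.4.6, pandas 2.3.3 and SciPy 1.17.1, checked on simulated data and against bedtools 2.31.1. Coordinates are counted from 1. Shares have exact (Clopper-Pearson) intervals and medians order-statistic intervals, both at 95%. A count of 0 was taken to allow 3 counts. With 1 library a group no test was made. The regions, measures and naming rule (highest and lowest scores, widest, nearest and farthest from streptavidin, densest windows, highest in the third list) were chosen with earlier results of these data known; the 3 narrowest, the touching region and the other regions of the densest window were added after their values were seen. Planned analyses of gene starts and forkhead motifs were not run, since no mm9 genome or annotation was used here.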

Additional observations from a re-analysis of the deposited data

How the results depend on the processing

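The number of unmatched strong peaks was 1376 at scores of 300 or more and 75 at 1000 or more. It was 514 with no streptavidin centre allowed within 1 kb and 541 with antibody peaks within 1 kb joined. In settings chosen after seeing the data it was 815 when only the 16473 highest-scoring of the 57748 streptavidin peaks were used. It was 551 with streptavidin peaks widened by 200 bases on each side. Both are out of the same 1620 strong peaks. The median width was 293 bases at scores of 300 or more and 369 bases at 1000 or more. The share with a streptavidin centre moved by construction with the distance, from 0% within 200 bases (exact interval to 0.628%; 3 counts of the total would be 0.512%) and 5.80% within 500 bases to 30.7% within 5 kb, 46.9% within 10 kb and 94.9% within 50 kb. At scores of 1000 or more the share within 1 kb was 6.67%. The share with another antibody centre was 32.3% within 5 kb. At scores of 1000 or more the third list met 0% of the regions, where 3 counts of the total would be 4%. The shares of 8 chromosomes left their intervals at that score, with 75 regions: chromosome 5 held 4%, chromosome 7 9.33%, chromosome 8 10.7%, chromosome 11 5.33%, chromosome 12 0%, chromosome 13 6.67%, chromosome 14 8% and chromosome 15 2.67%. The comparison leaves out the counting error of the 75 regions themselves. Moves at scores of 1000 or more are therefore not read as a dependence on the score. Of 60 alternative values, 40 stayed within the interval of the main value, or within 1.5 times it for a count of regions, and 20 moved. By that rule the count of 815 stayed, against 586. As a share of the 1620 strong peaks, however, 815 lies above 38.6%, the upper bound of the main share of 36.2%. Chromosome shares made up 38 of the 60 values, and only 8 of these moved. Most of the other values therefore moved. Fewer or more regions enter at another score; beyond that, the cause was not tested. No paired analysis was possible because each group has 1 library. No replicate could be left out for the same reason. Alternatives on gene starts and motifs were not run. Depth is unknown.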

Other observations

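The rule kept to autosomes. On chromosome X, 13 of 24 strong antibody peaks had no streptavidin overlap, or 54.2% (exact 95% interval 32.8 to 74.4), an interval that includes the autosomal 36.2%. Those 13 scored 420 to 659, whereas 6 matched strong peaks on X scored 1000 or more.

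A total of 16 unmatched strong peaks, or 2.73%, had no other antibody centre and no streptavidin centre within 50 kb. They lay on 12 chromosomes and scored 421 to 2467, with a median of 625. Their widths ran from 99 to 727 bases. The highest-scoring of them were chr13:25112112-25112321 (score 2467), chr17:46339409-46339923 (2379) and chr9:15162064-15162441 (1908), all among the 20 highest-scoring regions of the whole set. Reads at these positions in the input libraries were not analysed here. The share with neither centre within 50 kb was not computed for other peaks. Taken singly, 5.12% of the 586 and 5.21% of the lower-scoring unmatched peaks had no streptavidin centre within 50 kb. No other antibody centre lay there for 20.8% and 33.4%. The 2.73% is therefore a description only.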
